A study of Mus musculus with 5 samples.

Results

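The genes described here move cholesterol and fatty acids into, through and out of cells, and 9 were followed by name: Apoe, Abca1 and Abcg1 of cholesterol efflux, their regulator Nr1h3, Cd36 and Lpl of lipid uptake, the cytosolic carriers Fabp4 and Fabp5, and the lipid droplet gene Plin2. They are 9 of the 14161 genes listed in any library. They were chosen by name, selected on earlier measured count differences between knockout and wild type in these same libraries, so those differences are given as a description, with no test. The RNA came from mesenchymal stem cells grown out of mouse femur marrow, which attach to plastic and can turn into bone, cartilage or fat cells. There were 3 knockout (KO) libraries of Bmal1-/- cells and 2 wild type (WT) libraries of cells with the gene intact. Both groups are of strain C57BL/6, from mice 6 to 8 weeks old, in α-MEM with 12% FBS at passages 1 to 3. BMAL1, whose gene symbol is Arntl, is the DNA-binding partner of CLOCK at the centre of the circadian clock. The labels name no promoter, Cre line or deleted exon, and do not say whether the libraries of a group came from separate mice or cultures, so p-values and SDs measure the spread between these libraries, which may be technical.

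Cells that take up lipoproteins or dying cells must store or export the lipid. Lipoprotein lipase (Lpl) cuts triglyceride in lipoproteins, CD36 takes up fatty acids and oxidised lipoproteins, and the fatty acid binding proteins FABP4 and FABP5 carry fatty acids in the cytosol. Surplus lipid is kept as triglyceride and cholesteryl ester in droplets coated by perilipin 2 (Plin2). Free cholesterol leaves through the membrane pumps ABCA1 and ABCG1 to lipid-poor particles and HDL, or with secreted apolipoprotein E. The oxysterol-sensing nuclear receptor LXRα (Nr1h3) turns on Abca1, Abcg1 and Apoe. Macrophages use all of these genes, adipocytes many of them, and several belong to the PPAR target genes.

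Depth was low, with 226695, 237088 and 281990 expected counts in KO libraries and 243072 and 211623 in WT libraries. Levels are given as counts per 1e6 counts (CPM) of the scaled total of tested genes, and a count of 0 allows up to 12.1 to 15.9 CPM in a library (3 counts). Intervals on counts are exact 95% Poisson intervals and cover counting error only. Arntl itself had 4, 1 and 2 counts in KO libraries and 5 and 0 in WT libraries, too few to check the labels. Of the 9 genes, 6 passed the filter on low counts (Apoe, Abca1, Cd36, Lpl, Fabp5 and Plin2) and 3 did not (Abcg1, Nr1h3 and Fabp4).

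The genes are spread over the genome except for a pair of neighbours: Fabp5 (chromosome 3, 10012585 to 10016610, mm10, from RefSeq) and Fabp4 (chromosome 3, 10204342 to 10208616). Abca1 (53030789 to 53159988) and Plin2 (86626910 to 86670217) both lie on chromosome 4, far apart. Apoe lies on chromosome 7 (19696244 to 19701310), Cd36 on chromosome 5 (17781690 to 17888959), Lpl on chromosome 8 (68880555 to 68906932), Abcg1 on chromosome 17 (31057694 to 31117984) and Nr1h3 on chromosome 2 (91184061 to 91202829). None of the 9 shares exon bases with a gene on the other strand in GENCODE M21, and Nr1h3 shares 34 exon bases with Gm13783 on its own strand. The expected count of each gene was whole within 0.005 in all 5 libraries, Fabp4 and Fabp5 included.

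Promoter windows (250 bases before to 50 after a gene's start, RefSeq, GRCm38.p6) were at hand for 5 of the 9 genes, as 8 windows: Abca1, Plin2, Cd36, Apoe and Nr1h3. The E-box CACGTG, the letters that BMAL1 and CLOCK bind, stood in the windows of Abca1 and Plin2, starting 147 and 4 bases before the start. It stood in no window of Apoe, Cd36 or Nr1h3. Of 32851 windows of the same length 7.15% held these letters, and of the 2917 tested genes with a window 12.4% did. The motif AGGTCA of LXR, PPAR and other nuclear receptors, read on both strands, stood 218 bases before the start of Plin2 and 228 before that of Cd36, and in 16.3% of all windows. The pairs that LXR and PPAR bind hold copies of that motif, and were searched as exact AGGTCA repeats after 4 and after 1 free base. Neither exact pair stood in any of the 8 windows, nor in more than 0.0396% of all windows. Pairs that depart from these letters were not searched, so the lack of a match does not show that a site is absent. A match is a description of letters and not a bound site, and binding was not measured here. The windows with a match are shown, all on the minus strand and written in the direction of the gene, at chr4:53159846-53160145 (Abca1), chr4:86670010-86670309 (Plin2) and chr5:17835847-17836146 (Cd36). Each of these starts lies inside the outer limits of its gene given above. Capitals mark the E-box (CACGTG) and the AGGTCA motif, which reads TGACCT here because it lies on the other strand.
Abca1: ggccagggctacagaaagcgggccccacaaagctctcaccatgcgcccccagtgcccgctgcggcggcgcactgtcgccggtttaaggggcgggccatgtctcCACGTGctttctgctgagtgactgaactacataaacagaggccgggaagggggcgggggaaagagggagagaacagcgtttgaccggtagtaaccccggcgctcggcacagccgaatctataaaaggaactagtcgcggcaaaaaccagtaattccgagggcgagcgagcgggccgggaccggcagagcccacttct
Plin2: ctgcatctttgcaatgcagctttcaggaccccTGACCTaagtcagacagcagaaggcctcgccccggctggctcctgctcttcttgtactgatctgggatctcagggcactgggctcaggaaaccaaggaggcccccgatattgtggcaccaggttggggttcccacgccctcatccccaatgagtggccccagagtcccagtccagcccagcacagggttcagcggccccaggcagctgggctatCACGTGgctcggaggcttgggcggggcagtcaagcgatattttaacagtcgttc
Cd36: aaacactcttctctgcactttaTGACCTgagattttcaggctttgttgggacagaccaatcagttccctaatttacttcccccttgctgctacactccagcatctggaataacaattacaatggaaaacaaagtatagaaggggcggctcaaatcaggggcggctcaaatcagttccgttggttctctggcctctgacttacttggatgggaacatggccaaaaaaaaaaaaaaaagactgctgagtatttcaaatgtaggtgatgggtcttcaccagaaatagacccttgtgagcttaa

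Per length, Apoe stood far above the other genes in every library, and Abcg1 and Nr1h3 were near the limit of detection. Apoe was listed at 2121, 1734 and 1791 FPKM in KO libraries and 4019 and 4277 FPKM in WT libraries, and ranked 11th, 14th and 14th among all listed genes in KO libraries and 8th in both WT libraries. Fabp5 came second in all 5 libraries, at 156 to 198 FPKM in KO cells and 276 to 297 FPKM in WT cells. In WT cells Plin2 followed (105 and 119 FPKM), then Fabp4 (77.1 and 51.7) and Cd36 (37.7 and 71.1), whose ranges overlap, then Abca1 (35.4 and 32.1) and Lpl (7.56 and 9.67). In KO cells the range of Fabp4 (19.0 to 53.6 FPKM) overlapped with those of Plin2 (37.0 to 43.2) and Cd36 (26.4 to 30.3), and the ranges of Abca1 (7.51 to 14.6) and Lpl (8.28 to 17.3) overlapped as well. Abca1 was thus above Lpl in both WT libraries, while their order differed between KO libraries. Counted as reads, the 9 genes took 0.315% to 0.381% of all counts in KO libraries and 0.695% and 0.742% in WT libraries, and Apoe made up 82.4% to 83.4% of that in every library.

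**Figure D1:**
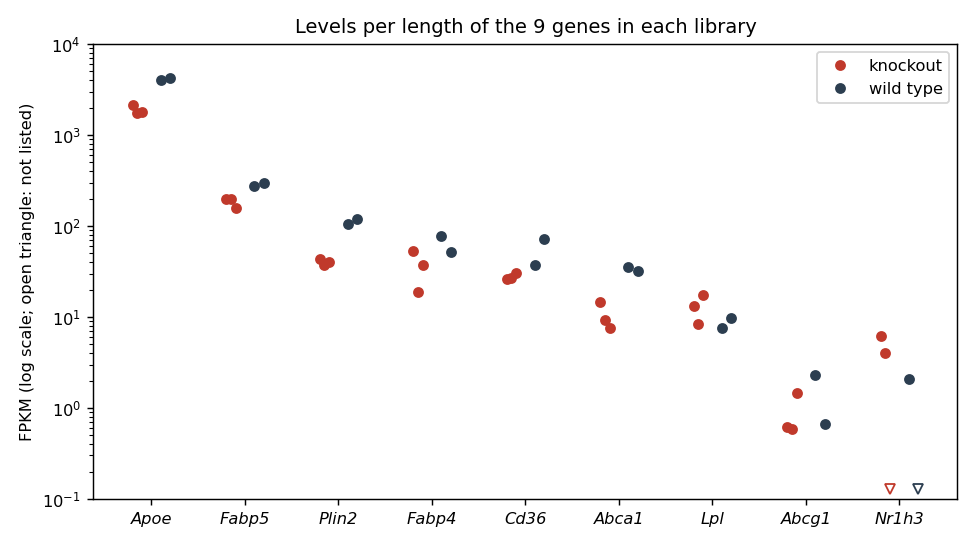
Deposited FPKM of the 9 genes (log axis) in each of the 3 knockout (left, red) and 2 wild type (right, dark) libraries, ordered by the wild type mean. Apoe sits at 1734 to 2121 FPKM in KO cells and at 4019 and 4277 in WT cells, and open triangles mark the libraries in which Nr1h3 was not listed.

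Both well-counted efflux genes had lower levels in KO cells. Apoe, the secreted apolipoprotein that accepts and carries cholesterol, had 712, 617 and 761 counts in KO libraries and 1410 and 1304 in WT libraries. Its level was 3144 ± 250 CPM (SD, n = 3) in KO cells and 6777 ± 217 CPM (n = 2) in WT cells. Every KO library lay below both WT libraries, and within each group the libraries lay close together. The log2 fold change was -1.11 (SE 0.10), a knockout to wild type ratio of summed counts of 0.464 (0.438 to 0.491).

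Abca1, the pump that loads cholesterol onto lipid-poor apolipoprotein A-I, had 43, 29 and 28 counts in KO libraries and 109 and 86 in WT libraries. Its level was 153 ± 48.4 CPM (SD, n = 3) in KO cells and 485 ± 38.9 CPM (n = 2) in WT cells, 3.21-fold higher in WT cells than in KO cells. The groups did not overlap, and KO 1 was the highest of its group at 207 CPM. Its log2 fold change of -1.68 (SE 0.21) was the lowest of the 6 genes above the filter, and 31 of the 3710 tested genes had a lower one. Within libraries, Abca1 had 0.0604, 0.0470 and 0.0368 counts per Apoe count in KO cells and 0.0773 and 0.0660 in WT cells. Each KO library thus lay below both WT libraries, KO 1 only narrowly below WT 2. No interval was computed for these ratios.

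Abcg1, the pump that passes cholesterol to mature HDL, had only 1, 1 and 3 counts in KO libraries and 4 and 1 in WT libraries. The ratio of 0.602 has an interval of 0.139 to 2.62, so a difference in either direction was not detectable at this depth. Nr1h3, the LXRα receptor itself, had 3, 2 and 0 counts in KO cells and 1 and 0 in WT cells. Its interval of 0.337 to 142 is too wide to place it, and the 0 of KO 3 alone allows up to 12.1 CPM. The sister receptor Nr1h2 (LXRβ) was also sparse, with 7, 3 and 9 counts in KO cells and 3 and 2 in WT cells.

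The uptake genes differed from each other. Cd36, the fatty acid and scavenger receptor, had 26, 28 and 38 counts in KO libraries and 38 and 62 in WT libraries. That is 125, 133 and 154 CPM in KO libraries against 179 and 330 CPM in WT libraries, so the groups did not overlap, but WT 1 lay near the KO libraries and WT 2 well above them. The WT libraries differed by more than counting error for this gene (WT 2 over WT 1, 1.85, interval 1.21 to 2.84). For the other 5 genes above the filter that interval included 1. The log2 fold change of Cd36 was -0.86 (SE 0.26) with all libraries, -1.27 without WT 1 and -0.38 without WT 2. Its listed length was 3527, 3542 and 3542 bases in KO cells and 3450 and 3436 bases in WT cells. That of Fabp5 varied too, at 724, 740 and 708 bases in KO cells and 743 and 720 bases in WT cells. Nr1h3 (1802 or 1734 bases where listed) and Apoe (1289 bases in KO 1, otherwise 1288) also varied. The lengths of Abca1, Abcg1, Plin2, Lpl and Fabp4 were the same in all 5 libraries.

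Lpl, the enzyme that frees fatty acids from lipoproteins, was the 1 gene above the filter with a higher mean in KO cells. It had 15, 10 and 25 counts in KO libraries and 9 and 10 in WT libraries, or 73.6 ± 26.8 CPM (SD, n = 3) in KO cells and 47.7 ± 7.68 CPM (n = 2) in WT cells. KO 2, at 47.5 CPM, lay between the WT libraries at 42.3 and 53.1 CPM, so the groups overlap. The log2 fold change was 0.65 (SE 0.43), and the count ratio of 1.59 has an interval of 0.918 to 2.85, which includes 1. Relative to Cd36, Lpl had 0.577, 0.357 and 0.658 counts per Cd36 count in KO cells and 0.237 and 0.161 in WT cells, with no overlap. The nearest of these, KO 2 and WT 1, rest on 10 and 9 Lpl counts, and no interval was computed for the ratios.

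The mean levels of the cytosolic carriers differed by smaller ratios than those of Apoe and Abca1. Fabp5, the epidermal type carrier also made by macrophages, had 34, 37 and 33 counts in KO libraries and 51 and 46 in WT libraries. Its level was 158 ± 21.8 CPM (SD, n = 3) in KO cells and 242 ± 3.45 CPM (n = 2) in WT cells, without overlap, and a log2 fold change of -0.63 (SE 0.25). Fabp4, the carrier that marks fat cells and is also made by macrophages, had 8, 3 and 7 counts in KO cells and 12 and 7 in WT cells. These were 38.4, 14.3 and 28.3 CPM in KO cells against 56.4 and 37.2 CPM in WT cells, and they overlap. The ratio of 0.571 has an interval of 0.282 to 1.15. Per length Fabp5 exceeded Fabp4 3.69, 10.4 and 4.21 times in KO cells and 3.57 and 5.74 times in WT cells, so their balance overlaps between the groups.

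Plin2, the droplet coat protein, had 22, 20 and 26 counts in KO libraries and 56 and 55 in WT libraries. Its level was 102 ± 5.99 CPM (SD, n = 3) in KO cells and 278 ± 20.7 CPM (n = 2) in WT cells. The groups were far apart and the libraries within each group close together. The log2 fold change of -1.44 (SE 0.26) was second to that of Abca1, and 63 of 3710 tested genes had a lower one. The ratio of Abca1 to Plin2 overlapped between the groups, with 1.95, 1.45 and 1.08 Abca1 counts per Plin2 count in KO cells and 1.95 and 1.56 in WT cells. That of Fabp5 to Plin2 did not overlap: Fabp5 had 1.55, 1.85 and 1.27 counts per Plin2 count in KO cells and 0.911 and 0.836 in WT cells. No interval was computed for either ratio.

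**Figure D2:**
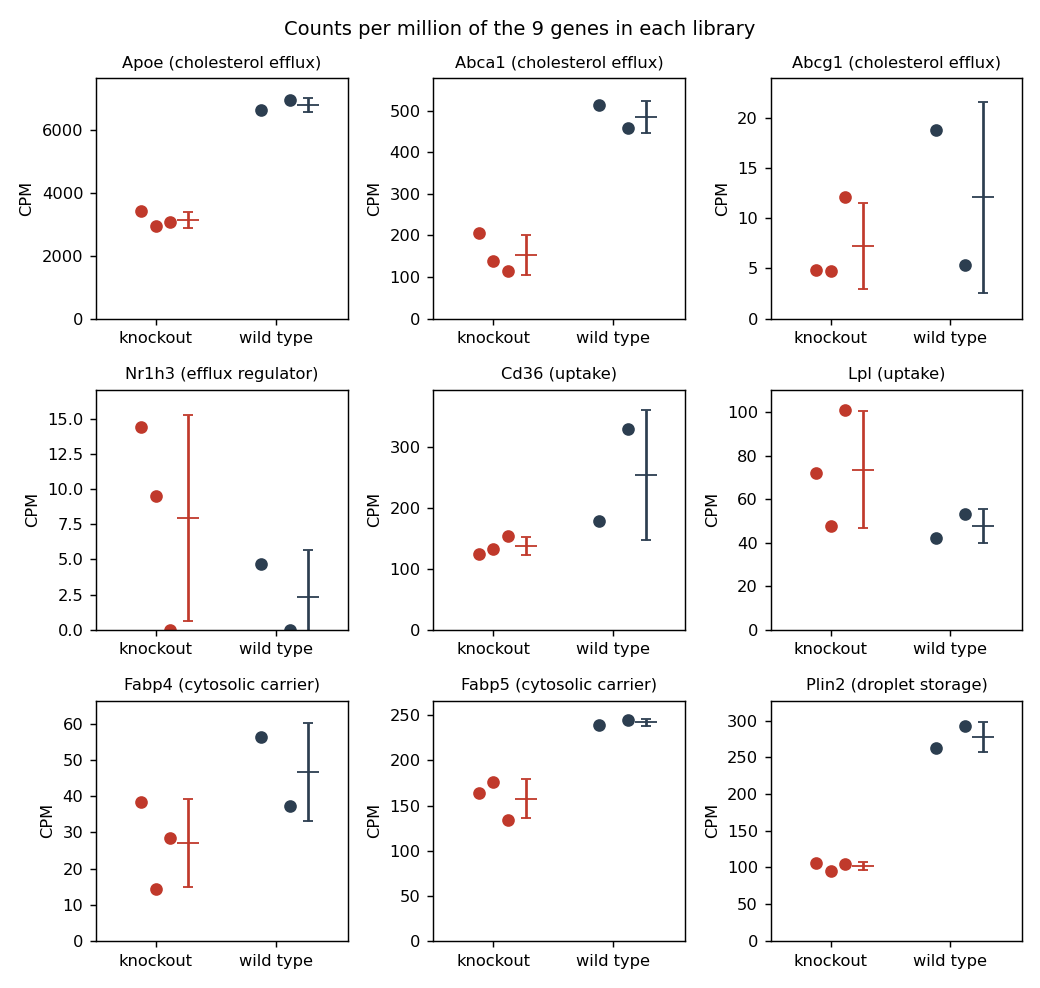
CPM of each of the 9 genes per library (points; knockout left, wild type right; axes start at 0) with the group mean ± SD beside them (n = 3 and n = 2). Apoe, Abca1, Cd36, Fabp5 and Plin2 show no overlap between groups, and Abcg1 and Nr1h3 rest on 0 to 4 counts a library.

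In all, 5 of the 9 genes were lower in every KO library than in both WT libraries and none was higher in every one. Among all tested genes 21.6% had such a pattern downward and 21.2% upward. As the genes were picked with this contrast in view, and 3 of the 9 were not among the tested genes, nothing about them is read from these shares. By role, the efflux genes Apoe, Abca1 and Abcg1 summed to 3304 ± 291 CPM (SD, n = 3) in KO cells and 7274 ± 168 CPM (n = 2) in WT cells, a log2 ratio of -1.14 that is mostly Apoe. The pumps alone summed to 160 ± 45.5 CPM in KO cells and 497 ± 48.4 CPM in WT cells, a log2 ratio of -1.64. Storage (Plin2) stood at a log2 ratio of -1.45. The carriers stood at -0.65, with 185 ± 20.5 CPM in KO cells and 289 ± 10.1 CPM in WT cells. Uptake stood at -0.52, with 211 ± 39.0 CPM in KO cells and 302 ± 114 CPM in WT cells. The uptake sums overlap between the groups, at 181 to 255 CPM in KO cells and 221 and 383 CPM in WT cells. Without WT 2 the uptake ratio was -0.067.

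**Figure D3:**
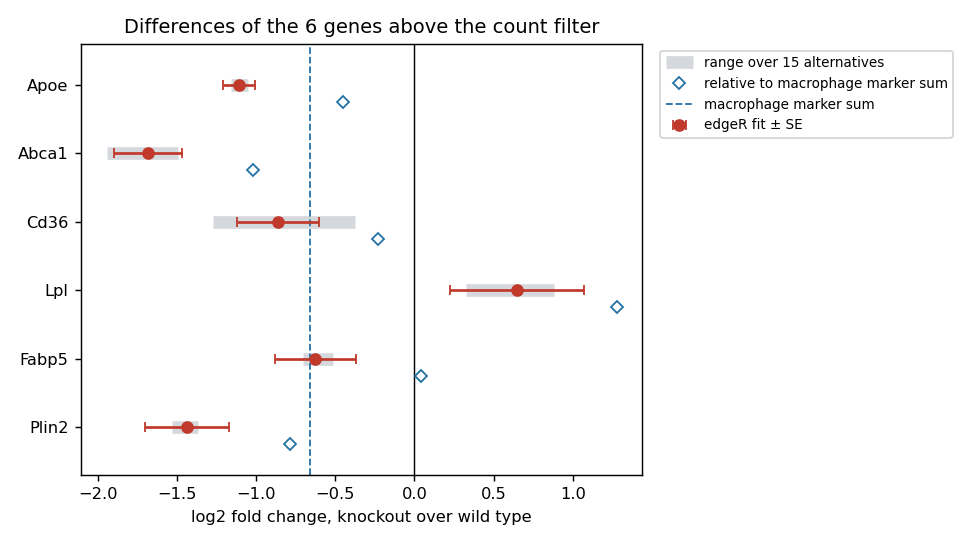
Log2 fold change, knockout over wild type, of the 6 genes above the count filter: fitted value ± SE (red), range over 15 alternatives (grey bar), and the same difference relative to the macrophage marker sum (open diamonds); the dashed line is that sum's own difference (-0.66). Abca1 (-1.68) and Plin2 (-1.44) lie farthest left, Lpl (0.65) lies right of 0, and the grey bar of Cd36 is the widest, from -1.27 to -0.38.

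Macrophage and stromal markers differed between the groups as well. All 20 macrophage markers were listed and tested, and 10 fell and 10 did not pass (edgeR, adjusted p under 0.05). Of all tested genes, 8.14% were lower and 8.19% higher. They summed to 11167 to 12429 CPM in KO libraries and 18198 and 18717 CPM in WT libraries, led by Lyz2, Mpeg1 and Ctss. Lyz2, lysozyme, averaged 6789 ± 282 CPM in KO cells (SD, n = 3) and 10767 ± 261 CPM in WT cells (n = 2). Mpeg1, a pore-forming protein, averaged 715 ± 43.9 CPM in KO cells and 1407 ± 163 CPM in WT cells. Ctss, cathepsin S, averaged 694 ± 89.5 CPM in KO cells and 1264 ± 6.26 CPM in WT cells. The 10 stromal markers were all listed, 4 of 7 tested rose and 3 did not pass. They summed to 10306 to 10964 CPM in KO cells and 3942 and 4119 CPM in WT cells. The collagen genes Col3a1, Col1a2 and Col1a1 made up most of that sum. Pdgfra, with 12, 21 and 15 counts in KO cells and 25 and 12 in WT cells, overlapped between the groups. So did Ly6a, with 9, 17 and 24 counts in KO cells and 20 and 15 in WT cells. The macrophage sum, over 20 genes against 10, was above the stromal sum in all 5 libraries of these cells labelled mesenchymal. With Lyz2 left out, chosen after seeing the data, it was 4635 to 5338 CPM in KO libraries, below the stromal sum. In WT libraries it was then 7766 and 7616 CPM, still above the stromal sum. The adipocyte markers Lep, Retn, Cfd, Plin1 and Cidec counted 0 in all 5 libraries and Adipoq had 1 count in KO 1. With Cebpa, Pparg and Lipe, the whole list summed to 61.8 to 76.9 CPM in KO cells and 37.6 and 47.8 CPM in WT cells. That sum rests on 16, 13 and 17 counts in KO libraries and 8 and 9 in WT libraries. Of these, Cebpa had 10, 9 and 15 in KO libraries and 7 and 4 in WT libraries, while Pparg and Lipe overlapped between the groups. The 5 endothelial markers, led by Pecam1, Emcn and Cdh5, summed to 128 to 178 CPM in KO cells and 165 and 197 CPM in WT cells. Only 1 adipocyte and 2 endothelial markers were tested, and none passed. In bulk RNA, fewer cells of a type and less RNA per cell cannot be told apart.

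Set against the macrophage marker sum of the same library, Apoe, Abca1 and Plin2 lay lower in every KO library, Cd36 and Fabp5 overlapped, and Lpl lay higher. Apoe came to 27.5%, 26.3% and 26.8% of the marker sum in KO cells and 35.4% and 38.1% in WT cells, a log2 ratio of -0.45. Abca1 came to 1.66%, 1.23% and 0.985% in KO cells against 2.74% and 2.51% in WT cells (-1.02). Plin2 came to 0.850%, 0.851% and 0.914% in KO cells against 1.41% and 1.61% in WT cells (-0.79). Fabp5 came to 1.31%, 1.58% and 1.16% in KO cells and 1.28% and 1.34% in WT cells (0.041), and its groups overlap. So do those of Cd36, at 1.01%, 1.19% and 1.34% in KO cells against 0.954% and 1.81% in WT cells (-0.23). Lpl came to 0.580%, 0.426% and 0.879% in KO cells against 0.226% and 0.292% in WT cells (1.28). Its CPM overlapped between the groups, and the macrophage marker sum itself stood at a log2 ratio of -0.66. The stromal marker sum stood at 1.39, above the 0.65 of Lpl, so the direction for Lpl depends on the sum used. With Lyz2 left out of the sum, chosen after seeing the data, the ratios were -0.46 for Apoe, -1.03 for Abca1, -0.80 for Plin2, 0.033 for Fabp5, -0.24 for Cd36 and 1.27 for Lpl. For Apoe (log2 fold change -1.11, SE 0.10) the separation depends on the markers used. Those of Mpeg1 (-0.98, SE 0.13) and Ctss (-0.86, SE 0.13) lay near it. The ratios do not show which cells made the RNA, and the part of cell composition in them was not tested.

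**Figure D4:**
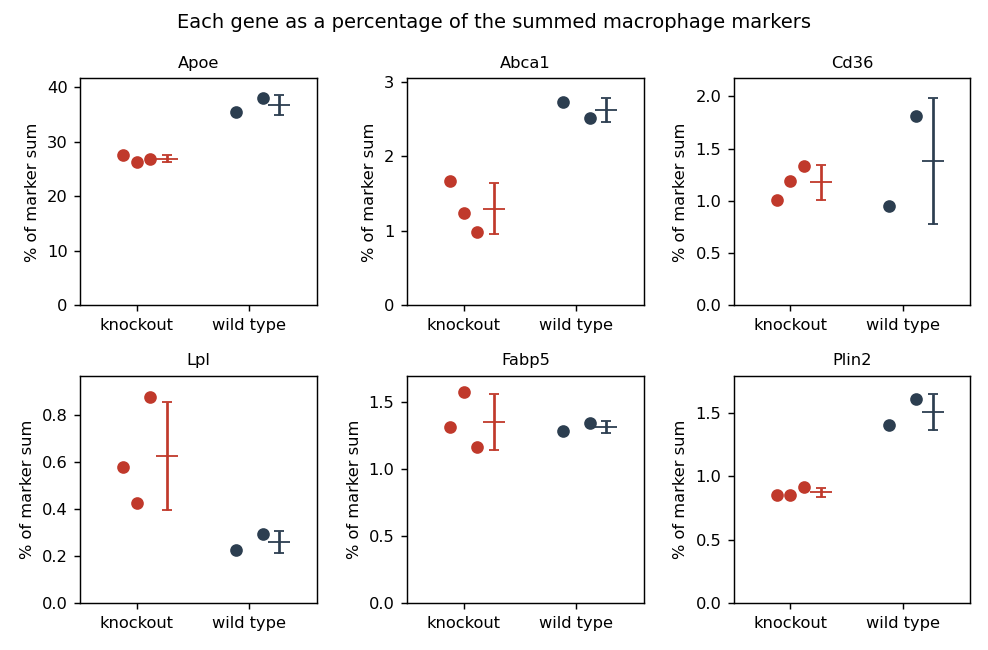
Each of the 6 genes above the count filter as a percentage of the summed CPM of 20 macrophage markers in the same library (points; knockout left, wild type right; mean ± SD beside them, n = 3 and n = 2). Relative to this sum, Apoe, Abca1 and Plin2 lie lower in every KO library, Fabp5 and Cd36 overlap, and Lpl lies higher.

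Around these genes, 128 further genes of lipid handling in 7 lists were looked up, none of them among the 9; 111 were listed and 27 tested. Of the 27, 5 fell at an adjusted p under 0.05 (edgeR's quasi-likelihood test over all 3710 tested genes) and 22 did not pass, against 8.14% of all tested genes lower and 8.19% higher. None rose with edgeR, none of the 27 had an unadjusted p under 0.05 in that direction, and none rose with DESeq2 or voom. The median log2 fold change of the 27 was -0.48, that of all tested genes 0.0070 and that of the 20 macrophage markers -0.63. The lists were chosen with earlier results of these data known, and the part of cell composition in these differences was not tested. With DESeq2 1 of the 27 related genes fell, Pltp.

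Of 15 other genes of cholesterol export and of the lysosomal cholesterol route, 10 were listed and 4 tested, and 2 fell (median -0.81). Pltp, which moves phospholipid onto HDL, had 13, 10 and 16 counts in KO cells and 35 and 30 in WT cells. Its level fell to 58.2 ± 9.34 CPM (SD, n = 3) in KO cells, against 162 ± 3.53 CPM (n = 2) in WT cells (log2 fold change -1.46, SE 0.34, edgeR adjusted p = 0.00031), and kept its call under all 13 alternatives. Up to 495 of its exon bases lie opposite exons of Ctsa, and the strand setting was not given in the sources used here. Lipa, the acid lipase that frees cholesterol in lysosomes, had 29, 18 and 32 counts in KO cells and 43 and 38 in WT cells. It fell by 0.77 on the log2 scale (SE 0.28, edgeR adjusted p = 0.0375), a call lost under 7 of 13 alternatives, among them the omission of KO 2 (-0.58), KO 3 (-0.84), WT 1 (-0.78) or WT 2 (-0.77).

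Of 15 other uptake genes, 13 were listed and 4 tested, and 2 fell (median -0.50). Msr1, the class A scavenger receptor of macrophages, had 70, 70 and 98 counts in KO cells and 123 and 93 in WT cells. It fell by 0.59 on the log2 scale (SE 0.17, edgeR adjusted p = 0.00582), a call lost with DESeq2 and without WT 1 (-0.49). Lrpap1, a chaperone of lipoprotein receptors, had 14, 19 and 18 counts in KO cells and 32 and 28 in WT cells. It fell by 0.96 (SE 0.33, edgeR adjusted p = 0.0255), a call lost under 7 of 13 alternatives, among them the omission of KO 1 (-0.87), KO 3 (-0.92), WT 1 (-0.97) or WT 2 (-0.97).

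Of 30 other genes of the droplet, of ester synthesis and of lipolysis, 26 were listed and 6 tested, and 1 fell (median -0.87). Soat1, which esterifies cholesterol for storage, had 19, 15 and 12 counts in KO cells and 34 and 24 in WT cells. Its level fell to 70.4 ± 21.4 CPM (SD, n = 3) in KO cells, against 144 ± 22.8 CPM (n = 2) in WT cells (log2 fold change -1.05, SE 0.34, edgeR adjusted p = 0.0156). That call was lost under 6 of 13 alternatives, among them the omission of KO 2 (-1.06), KO 3 (-0.82) or WT 1 (-0.89). The other perilipins were sparse: Plin1 counted 0 in all 5 libraries, and Plin3 had 3, 7 and 3 counts in KO cells and 2 and 8 in WT cells. Pnpla2, the first lipase of stored triglyceride, had 1, 2 and 1 counts in KO cells and 12 and 3 in WT cells.

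No tested gene passed among the regulators (3 of 14 tested), the other carriers and acyl-CoA synthetases (3 of 12), cholesterol synthesis (4 of 22) or fatty acid oxidation (3 of 20). With DESeq2 and voom none passed either, and at an unadjusted p under 0.05 edgeR gave 1 gene, Fdft1, in these 4 lists. Among regulators, the corepressor Ncor1 had a log2 fold change of 0.15 (edgeR adjusted p = 0.690). Among carriers, the acyl-CoA synthetases Acsl5 and Acsl4 stood at -0.68 (edgeR adjusted p = 0.262) and -0.40 (0.495). Up to 404 exon bases of Acsl5 lie opposite another gene, with the same limit as for Pltp. In cholesterol synthesis Fdft1, squalene synthase, stood at -0.24 (edgeR adjusted p = 0.105) and Sqle, squalene epoxidase, at 0.65 (0.258). Fdft1 had 597 to 816 counts a library and Sqle 10 to 33, and up to 774 of the 4227 exon bases of Fdft1 lie opposite exons of the cathepsin gene Ctsb. Without the strand setting, reads that fall in those bases cannot be told from reads of Ctsb, and their share of the Fdft1 counts was not measured. In fatty acid oxidation Cpt1a, the carnitine transferase of mitochondrial entry, stood at -0.49 (edgeR adjusted p = 0.439) and Acadl, a chain-shortening dehydrogenase, at -0.48 (0.564).

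**Figure D5:**
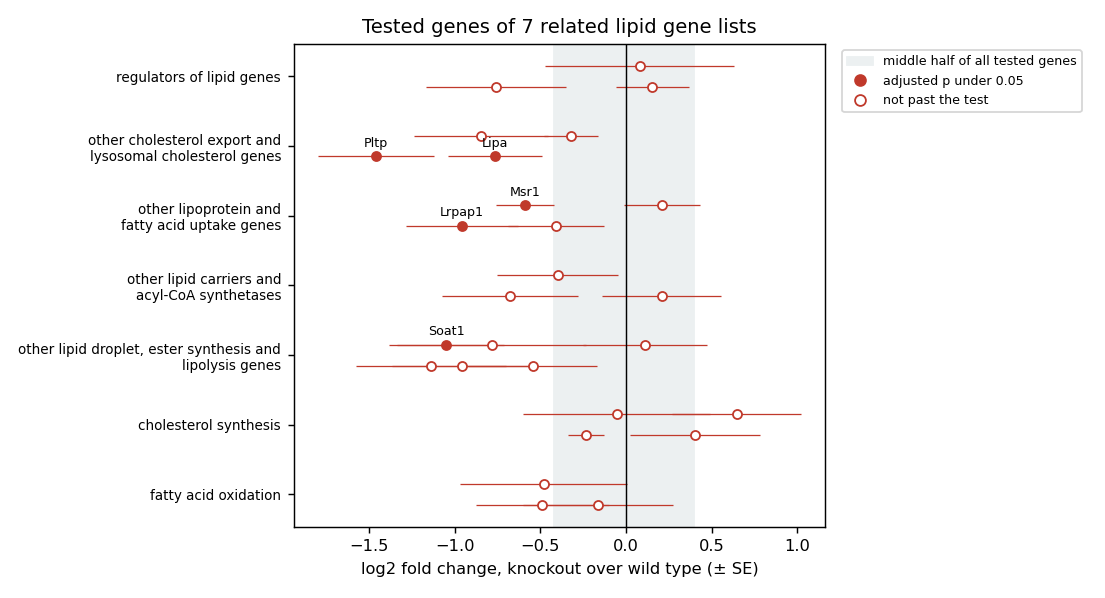
Log2 fold change ± SE, knockout over wild type, of the 27 tested genes in 7 lists of related lipid genes; filled points passed at an adjusted p under 0.05, and the grey band spans the quartiles of all 3710 tested genes. The 5 filled points, Pltp, Lipa, Msr1, Lrpap1 and Soat1, all lie left of 0.

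The genes with the profile most like Apoe, Cd36 and Plin2 were named by the smallest root mean square difference of centred log2(CPM + 1) profiles over the 5 libraries, among 1380 genes of at least 100 CPM on average. Nearest to Apoe were Slc43a2 (an amino acid transporter, difference 0.059), Vsir (an immune checkpoint receptor, 0.076) and Ctsl (the lysosomal protease cathepsin L, 0.087). Nearest to Plin2 were Gpnmb (a transmembrane glycoprotein, 0.076) and Dnah6 (an axonemal dynein heavy chain, 0.114). Nearest to Cd36, at larger differences, were Osbpl8 (an oxysterol-binding protein relative, 0.137), Clec4a1 (a C-type lectin, 0.165) and Nmt1 (an N-myristoyltransferase, 0.176). Slc43a2 and Vsir had 17 to 46 counts a library, and Osbpl8, Clec4a1 and Nmt1 had 17 to 44. Counting error was not taken into account in these differences, so the order of the genes is a description and does not show shared regulation.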

How the data were processed

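RNA-seq covered 3 Bmal1-knockout and 2 wild type libraries of cultured marrow cells. For each, the authors deposited expected counts, FPKM (scaled by gene length and library size) and gene lengths, per the file headers. The submitters' processing notes name HISAT2, StringTie, Bowtie2, RSEM and mm10, without versions or roles. Genes not listed in a library counted as 0, and expected counts were rounded (93.8% to 94.2% of listed values were whole within 0.005). Genotypes were compared with edgeR 4.0.16 (R 4.3.3): filterByExpr (minimum count 10, minimum total 15), TMM, robust quasi-likelihood fit, Benjamini-Hochberg adjustment at 0.05 over 3710 genes. The SE of a fold change came from its F statistic. The script was tested on simulated data. DESeq2 1.42.0 and limma 3.58.1 (voom, and log2(FPKM + 1) or log2(FPKM + 0.1)) served for alternatives, with RLE or no scaling, other filters, unrounded counts, omission of each library and the replicate number as a block. The genes and lists were chosen with earlier results of these data known. Named genes are the 9, up to 3 genes per direction of each related list past the test (otherwise the 2 smallest p), the 3 highest of each marker list and the 3 nearest profiles. Nr1h2, Plin3, Pnpla2 and the genes listed at 0 were named outside this rule, after their values were seen. A few genes that this rule names are not reported here.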

Additional observations from a re-analysis of the deposited data

How the results depend on the processing

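Apoe, Abca1, Cd36, Lpl, Fabp5 and Plin2 kept the sign of their log2 fold change under all 15 alternatives, with ranges of -1.16 to -1.05, -1.94 to -1.49, -1.27 to -0.38, 0.33 to 0.88, -0.70 to -0.51 and -1.53 to -1.37. With a library left out, the efflux sum ranged from -1.21 to -1.09, storage from -1.52 to -1.37, carriers from -0.71 to -0.56 and uptake from -0.86 to -0.067. Over all tested genes, 304 were higher and 302 lower; DESeq2 gave 145 and 126, and leaving out a library gave 144 to 323 higher and 146 to 287 lower (144 and 154 without WT 1, 153 and 146 without WT 2). Where 1 wild type library was left, it was assumed to vary like the knockout libraries. The 5 related genes that fell became 1 with DESeq2, 2 with no filter, and 1 to 6 with a library left out (3 without KO 2, KO 3 or WT 2). Ncor1, not called, changed sign without WT 1 (-0.0052) and was 0.29 without WT 2. With the replicate number as a block, 3 related genes fell, and 229 genes in all were higher and 212 lower. Only numbers 1 and 2 are shared, and deviations of same-numbered libraries correlated at -0.014 and 0.032. No pairing by number was detected, but with 2 WT libraries, whose deviations mirror each other, this check cannot exclude it. The causes were not tested. Depth limits Abcg1, Nr1h3 and Fabp4 most.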
